A study of Mus musculus with 6 samples.

Results

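The nuclear-encoded genes of respiratory chain complexes I to IV were compared between dendritic cells and macrophages grown from mouse bone marrow. The genes were chosen by name: every gene whose symbol starts with Nduf, Uqcr, Cox4, Cox5, Cox6, Cox7 or Cox8, together with Sdha, Sdhb, Sdhc, Sdhd and Cyc1, where a probe set on the array named that gene alone. This gave 73 of the 19938 genes tested. They were 41 genes of complex I (6 core subunits, 28 accessory subunits and 7 assembly factors), 4 of complex II, 9 of complex III and 19 of complex IV. Ndufa4 and Ndufa4l2 were placed with complex IV, where the Ndufa4 protein is now known to belong. Ndufb1, Ndufb4, Ndufaf8 and Cox7c, which no such probe set measured, were not analysed here.

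Marrow cells of C57B/6 mice had been kept for 6 days in 20 ng/ml GM-CSF, a growth factor that drives myeloid cells, and were left unstimulated. Total RNA of the dendritic fraction (3 arrays) and of the macrophage fraction (3 arrays) of these cultures was hybridised to Affymetrix mouse gene arrays. The labels do not say how the fractions were separated or whether the replicates came from different mice or dishes, so p-values measure only the spread between these arrays, which may be technical.

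The respiratory chain lies in the inner mitochondrial membrane. Complexes I and II pass electrons from NADH and succinate to ubiquinone, complex III passes them on to cytochrome c, and complex IV hands them to oxygen, while complexes I, III and IV pump the protons that drive ATP synthase. Complex II is also the succinate dehydrogenase of the citric acid cycle, and in macrophages and dendritic cells the use of this chain is known to shift with activation.

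Of the 73 respiratory chain genes, 27 were lower in the dendritic arrays at a limma adjusted p under 0.05, none was higher and 46 did not pass. At an unadjusted p under 0.05, limma gave 33 lower and 2 higher. Over all genes tested, 11.6% were lower and 9.98% higher by the same test. The dendritic minus macrophage difference was below 0 for 62 of the 73 genes, against 43.7% of all genes, and its median was -0.30 on the log2 scale, against 0.03 over all genes. In 42 of the 73 genes every dendritic array lay below every macrophage array and in 4 every one lay above. Over all genes these shares were 16.7% and 17.3%. Of the 73 genes, 70 were above the dim level, defined below, in at least 1 group. Of the 11991 genes with a mean above that level, 18.3% were lower and 15.3% higher by limma's test. The difference was below 0 in 5753 of these 11991. Every dendritic array lay below every macrophage array in 2992 of them and above in 2749. All 4 complex II genes were lower, 16 of 41 of complex I, 4 of 9 of complex III and 3 of 19 of complex IV. The median differences were -0.88, -0.30, -0.49 and -0.10 for complexes II, I, III and IV. Whether the complexes differed from one another was not tested. In bulk RNA such as this, fewer cells with a transcript and less of it per cell cannot be told apart.

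**Figure D1:**
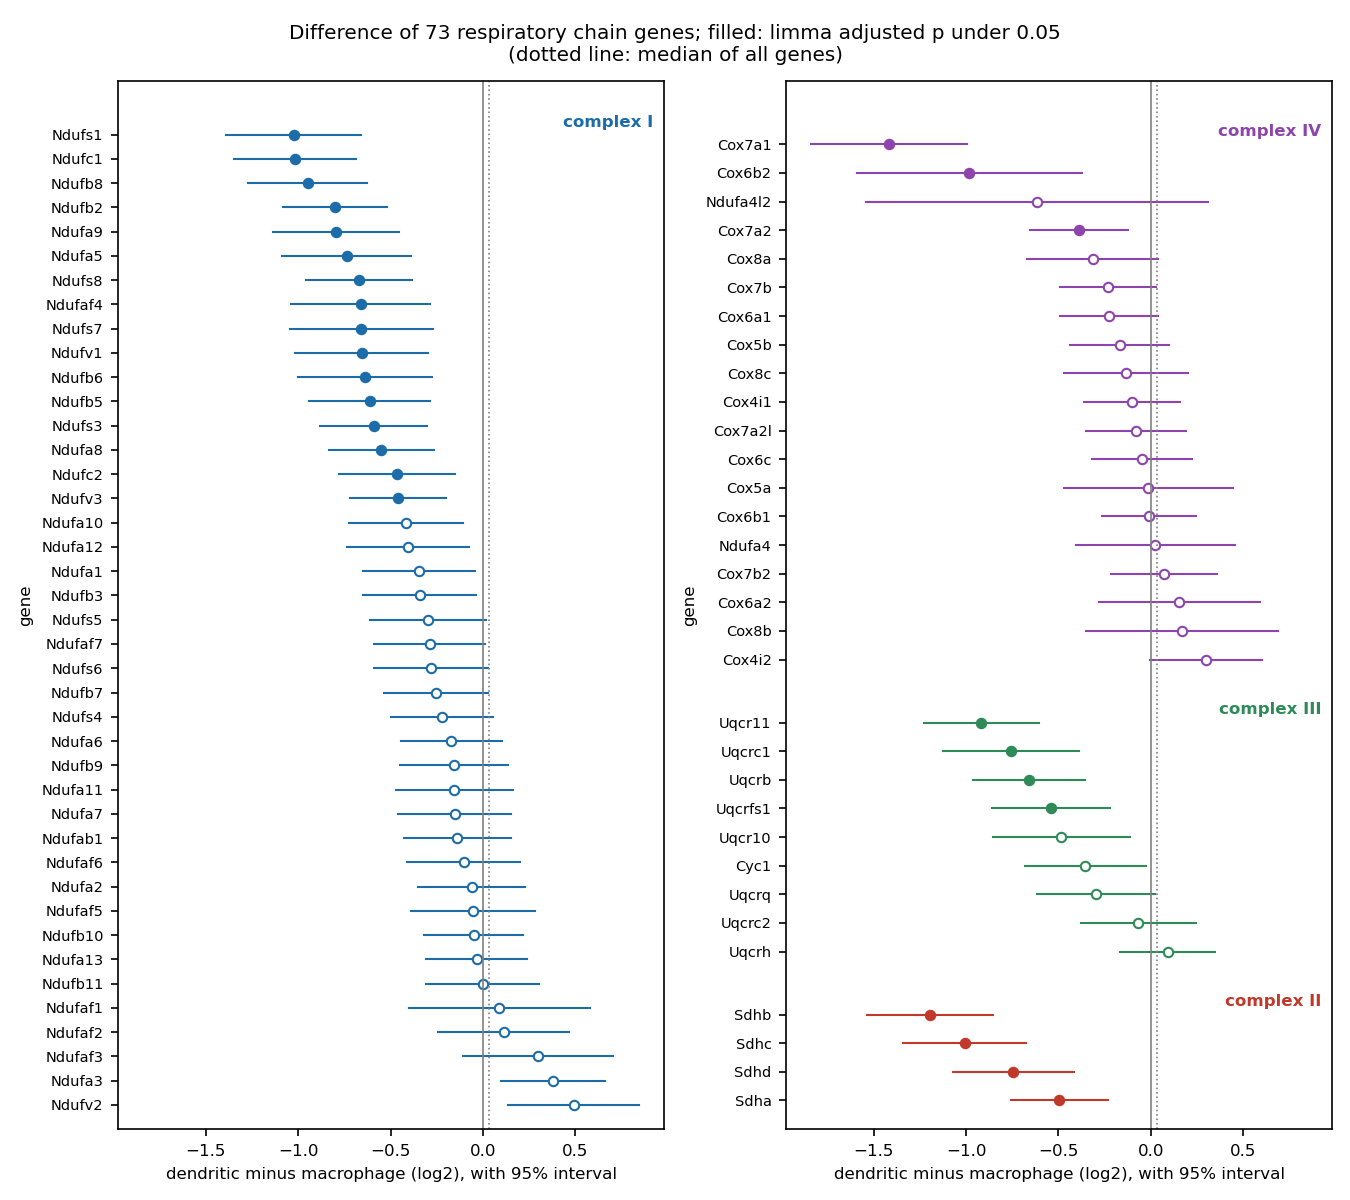
Dendritic minus macrophage difference of each of the 73 genes on the log2 scale (x axis), with its 95% interval, by complex and in order of size. Filled points passed limma's test over all genes, the solid line is 0 and the dotted line is the median of all genes. Every complex II point is filled and left of 0, whereas most complex IV points are open and near 0.

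The count of 27 depended on single arrays and on the setting. It was 21 with each array centred on its 75th percentile and 37 with array weights. It was 17 without dendritic replicate 2, 14 without macrophage replicate 2 and between 20 and 28 without any other single array. With the replicate number as a block, 28 genes were lower and 2, Ndufv2 and Ndufa3, were higher. In the marker lists, 8 of 8 dendritic cell genes were higher in the dendritic arrays and 8 of 8 macrophage genes lower. These lists were chosen with earlier results of these data known, so the counts are no independent check of the fractions. Of the markers of other cells, 9 of 10 neutrophil genes, 3 of 6 mast cell and basophil genes, 3 of 4 eosinophil genes, 2 of 4 erythroid and stromal genes and 1 of 6 lymphocyte genes were above the dim level in at least 1 group. The dim level, used because the deposited values carry no detection call, was 4.63, the 95th percentile of the mean level of 1194 olfactory and vomeronasal receptor genes. The neutrophil genes averaged 7.40, 6.57 and 6.34 in dendritic arrays 1 to 3 and 7.61, 6.35 and 6.43 in the macrophage arrays, so replicate 1 stood highest in each group, and 1 of the 10, Mpo, differed. Without replicate 1 of both groups, 32 respiratory chain genes were lower and 1 was higher. Of the 6 mast cell and basophil genes and the 4 erythroid and stromal genes, none passed limma's test (1 and 0 at an unadjusted p under 0.05), 1 of 4 eosinophil genes (Ear6) was lower, and 1 of 6 lymphocyte genes (Cd79a, dim in both groups) was higher. Genes of mitosis averaged 4.81 to 5.04 in the dendritic arrays and 5.14, 6.75 and 6.79 in macrophage arrays 1 to 3. All 15 were below 0 in the difference, 6 of them passed, and their part in the respiratory chain differences was not tested.

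All 4 subunits of complex II were lower in the dendritic arrays. Sdha carries the flavin that oxidises succinate, Sdhb holds the iron-sulfur clusters that lead the electrons onward, and Sdhc and Sdhd anchor the enzyme in the membrane and form its ubiquinone site. The start of the genes is shown because complex II was the complex in which all members differed. RefSeq (build GRCm38.p6) gave windows from 250 bases before to 50 bases after the start for 58 of the 73 genes, among them Sdha, Sdhb and Sdhd. Only the 250 bases before each start are printed, 5′ to 3′ along the gene. These stretches are Sdha (chr13:74350241-74350490, minus strand), Sdhb (chr4:140961021-140961270, plus strand) and Sdhd (chr9:50603850-50604099, minus strand). Capitals mark matches, on either strand, to the binding motifs of NRF1 (GCGCA and GCGC with any 1 base between them) and of ETS factors such as GABP (CCGGAAG), which are known regulators of respiratory genes.
Sdha: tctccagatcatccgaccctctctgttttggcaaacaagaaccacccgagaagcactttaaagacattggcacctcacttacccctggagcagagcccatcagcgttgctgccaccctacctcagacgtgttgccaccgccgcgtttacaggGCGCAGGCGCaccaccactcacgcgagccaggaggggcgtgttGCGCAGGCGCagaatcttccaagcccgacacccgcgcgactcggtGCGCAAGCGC
Sdhb: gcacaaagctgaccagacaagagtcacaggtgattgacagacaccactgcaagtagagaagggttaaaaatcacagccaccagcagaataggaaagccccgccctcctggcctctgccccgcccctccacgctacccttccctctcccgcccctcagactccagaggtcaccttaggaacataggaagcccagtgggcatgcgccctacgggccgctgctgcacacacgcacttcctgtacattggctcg
Sdhd: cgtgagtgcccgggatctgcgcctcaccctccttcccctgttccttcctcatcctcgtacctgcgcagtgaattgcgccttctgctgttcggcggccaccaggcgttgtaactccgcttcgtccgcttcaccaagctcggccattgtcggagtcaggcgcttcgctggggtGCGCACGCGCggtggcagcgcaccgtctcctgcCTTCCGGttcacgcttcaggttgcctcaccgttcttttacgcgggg
The Sdha stretch held 3 NRF1 matches, with first bases at -98, -55 and -10 from the start. That of Sdhd held an NRF1 match at -79 and an ETS match at -46, and the Sdhb stretch held neither, although its full window has an ETS match in the 50 bases after the start.

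Sdhb gave 8.07, 7.67 and 7.96 on the log2 RMA scale in the dendritic arrays and 8.92, 9.23 and 9.14 in the macrophage arrays. The groups lay more than their own spread apart, and the difference was -1.20 ± 0.15 (SE, n = 3 and 3; limma adjusted p = 0.000428), a 2.29-fold higher macrophage level. Sdhc gave 8.86, 8.96 and 9.04 in the dendritic and 9.73, 10.17 and 9.995 in the macrophage arrays, a difference of -1.01 ± 0.15 (adjusted p = 0.00100). Sdhd stood at 8.08, 8.16 and 8.04 against 8.58, 8.95 and 8.98, a difference of -0.74 ± 0.14 (adjusted p = 0.00515). In none of the 3 genes did the groups overlap, and macrophage replicate 1 was the lowest macrophage array in each. Sdha, the catalytic subunit, had the smallest change of the 4: it stood at 8.53, 8.55 and 8.51 in the dendritic and 8.94, 9.09 and 9.05 in the macrophage arrays, a difference of -0.49 ± 0.12 (adjusted p = 0.0141). The dendritic values of Sdha lay close together (SD 0.02), and again the groups did not overlap. Sdhb, Sdhc and Sdhd passed in all 17 alternative settings, while Sdha passed in 13. Its adjusted p was 0.0509 without dendritic replicate 3, 0.0798 without macrophage replicate 2, 0.0540 without macrophage replicate 3 and 0.0559 with 75th percentile centring, over a range of 0.00226 to 0.0798.

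The assembly factors of complex II did not all go the way of its subunits. Sdhaf1, which helps to insert the iron-sulfur clusters into Sdhb, gave 9.54, 9.29 and 9.68 in the dendritic arrays and 7.90, 7.96 and 8.09 in the macrophage arrays. Sdhaf1 was therefore higher in the dendritic arrays, by 1.52 ± 0.14, in contrast to the Sdhb transcript itself. Sdhaf2, needed for the attachment of flavin to Sdha, was higher as well, at 8.50, 8.90 and 9.24 against 7.75, 8.03 and 7.72, a difference of 1.05 ± 0.20. Sdhaf4, which also acts on flavinated Sdha, was lower by -0.75 ± 0.20, and Sdhaf3 did not pass (-0.40 ± 0.14). Sdhaf3 was named after its values were seen, to complete the set of 4 complex II factors.

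**Figure D2:**
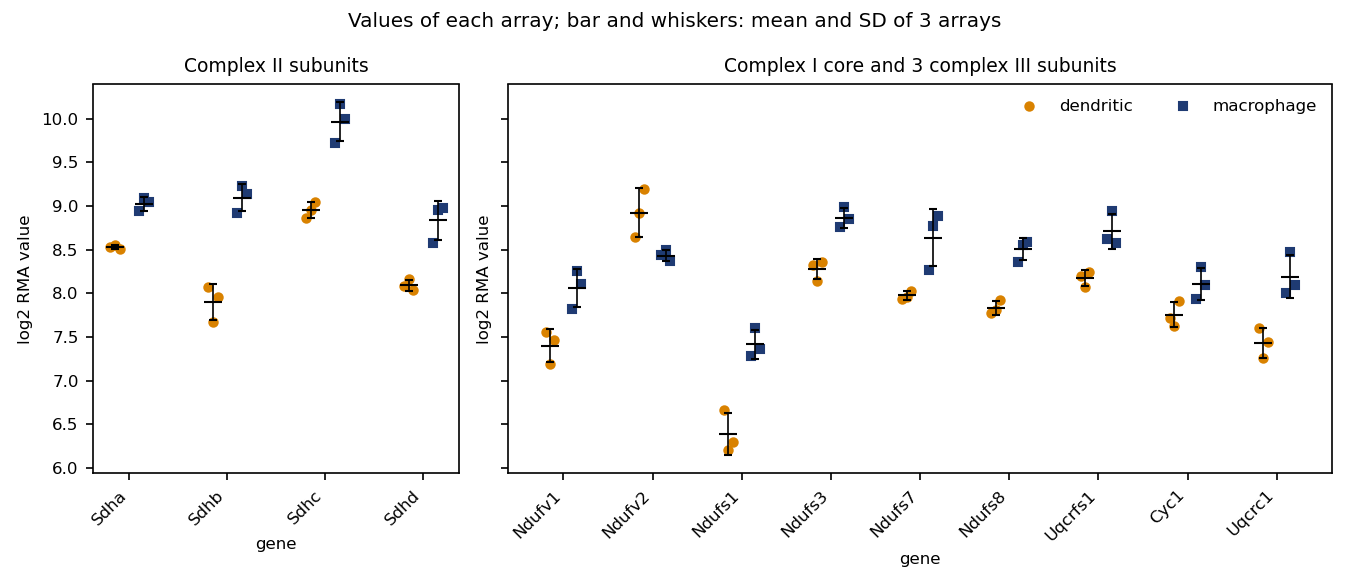
Log2 RMA value of each array (y axis) for the 4 complex II subunits (left) and for the 6 core subunits of complex I and 3 subunits of complex III (right). Circles are dendritic and squares macrophage arrays, with the mean and SD of 3 arrays. The groups are apart in every gene shown, though only just in Cyc1, with the dendritic arrays below in each except Ndufv2. The 3 complex III subunits do not stand for the others. In Uqcrc2 and Uqcrq, not shown, the groups overlap, and in Uqcrh the dendritic arrays lie above.

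Complex I is built around a hydrophilic arm of core subunits that takes electrons from NADH, and 5 of the 6 core subunits measured were lower in the dendritic arrays. Ndufs1, the largest subunit and a carrier of iron-sulfur clusters, gave 6.67, 6.20 and 6.30 in the dendritic arrays and 7.28, 7.61 and 7.36 in the macrophage arrays. The groups did not overlap, and the difference was -1.02 ± 0.16 (adjusted p = 0.00162), a 2.03-fold higher macrophage level. Ndufs8, which holds clusters near the ubiquinone site, stood at 7.77, 7.81 and 7.92 against 8.36, 8.56 and 8.59, a difference of -0.67 ± 0.13 (adjusted p = 0.00436). Ndufs7, the subunit with the last cluster before ubiquinone, stood at 7.94, 7.96 and 8.03 against 8.26, 8.77 and 8.88 (-0.66 ± 0.17, adjusted p = 0.0225). Its macrophage replicate 1 lay well below the other macrophage arrays, yet still above all dendritic ones. Ndufv1, which binds NADH and the flavin, gave 7.56, 7.19 and 7.46 against 7.82, 8.25 and 8.10 (-0.66 ± 0.16, adjusted p = 0.0161). Ndufs3, a structural core subunit near the ubiquinone site, gave 8.32, 8.15 and 8.36 against 8.76, 8.99 and 8.85 (-0.59 ± 0.13, adjusted p = 0.00933). In each of these 5 genes all dendritic arrays lay below all macrophage arrays.

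Ndufv2, the partner of Ndufv1 in the NADH-oxidising tip, went the other way. It gave 8.65, 8.93 and 9.20 in the dendritic and 8.43, 8.49 and 8.37 in the macrophage arrays, with every dendritic array above every macrophage array. The difference of 0.49 ± 0.16 did not pass (adjusted p = 0.0556), with a 95% interval from 0.14 to 0.85. With the replicate number as a block the adjusted p of Ndufv2 was 0.0420, without dendritic replicate 1 it was 0.0114, and over all alternatives it ran from 0.00633 to 0.183. Among the lower core subunits, Ndufs1 and Ndufs8 passed in every alternative. Ndufs3 missed the threshold without macrophage replicate 2 (adjusted p = 0.0566; range 0.00137 to 0.0566). Ndufv1 missed it when dendritic replicate 2, or else macrophage replicate 2 or 3, was left out (0.0588 to 0.0783; lowest over all alternatives 0.00123). Ndufs7 missed it without dendritic replicate 2 or 3 or macrophage replicate 2 or 3 (0.0546 to 0.0931; lowest over all alternatives 0.00199), and also with 75th percentile centring (0.0551) and with every probe set tested (0.0561).

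The accessory subunits, which surround the core and are needed for its assembly and stability, had both called and uncalled members. Of the 28 measured, 10 were lower, none was higher (1 at an unadjusted limma p under 0.05) and 18 did not pass. Their median difference was -0.32 and 27 of 28 were below 0. Ndufc1, a small membrane-arm subunit, gave 8.27, 7.85 and 8.01 in the dendritic and 8.94, 9.13 and 9.13 in the macrophage arrays, a difference of -1.02 ± 0.15 (adjusted p = 0.000925). A further Ndufc1 probe set gave -0.93. Ndufb8, of the membrane arm as well, stood at 8.85, 8.51 and 8.60 against 9.50, 9.75 and 9.55 (-0.95 ± 0.14, adjusted p = 0.00116). Ndufb2, also a membrane-arm subunit, stood at 6.99, 6.84 and 6.87 against 7.72, 7.80 and 7.58 (-0.80 ± 0.12, adjusted p = 0.00147). Ndufa9, which sits near the ubiquinone site where the 2 arms meet, stood at 7.91, 7.42 and 7.67 against 8.42, 8.55 and 8.41 (-0.80 ± 0.15, adjusted p = 0.00439). In these 4 genes, as in Ndufa5 (-0.74 ± 0.15), the groups did not overlap and the call was made in all 17 alternatives.

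The other 5 accessory subunits that were lower were less stable. Ndufb6 (-0.64), Ndufb5 (-0.61) and Ndufa8 (-0.55) each missed the threshold without macrophage replicate 2 (adjusted p 0.0904, 0.0673 and 0.0651). Ndufb6 and Ndufb5 also missed it without dendritic replicate 2 (0.0758 and 0.0556) or 3 (0.0728 and 0.0585). Ndufv3 (-0.46) missed it without dendritic replicate 2 or any 1 macrophage array (0.0590 to 0.0669), and with 75th percentile centring (0.0714). Ndufc2 (-0.46, adjusted p = 0.0411), the partner of Ndufc1, missed it without dendritic replicate 1 or 2 or macrophage replicate 2 or 3, at 0.0839 to 0.173, with a range over all alternatives of 0.0103 to 0.173. Ndufc2 also missed it with repeated quantile normalization (0.0737), 75th percentile centring (0.134) and every probe set tested (0.0752). By the naming of the subunits, 3 of 12 Ndufa, 4 of 9 Ndufb, 2 of 2 Ndufc, 4 of 7 Ndufs and 2 of 3 Ndufv subunits were lower. Core and accessory subunits are mixed in the last 2 of these classes. For comparison, 18.3% of all genes above the dim level were lower. The share was 22.9% of genes with a mean signal of 8 to 9 and 23.2% at 9 to 10. The Ndufa share was close to these last values, and whether the classes differed from one another was not tested.

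Ndufa10, an accessory subunit of the membrane arm, gave 9.40, 9.33 and 9.29 in the dendritic arrays and 9.54, 9.91 and 9.81 in the macrophage arrays. The groups did not overlap, but the difference of -0.42 ± 0.14 missed the threshold (adjusted p = 0.0601; range 0.00540 to 0.248), and it was called without macrophage replicate 1 (0.0293). Ndufa3, a small membrane-arm subunit, was the only one of the 28 accessory subunits above 0. It stood at 9.99, 10.10 and 10.19 in the dendritic and 9.60, 9.77 and 9.77 in the macrophage arrays, a difference of 0.38 ± 0.12 (adjusted p = 0.0625; range 0.0196 to 0.192). Ndufa3 was called higher with the replicate block (adjusted p = 0.0393) and without dendritic replicate 1 (0.0442). The accessory subunits closest to 0 were Ndufb11, at 0.00 with an interval from -0.31 to 0.31, and Ndufa13, at -0.03 with an interval from -0.31 to 0.24. These 2 were picked for their small difference, and their intervals do not show that they were equal.

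The 7 Nduf assembly factors, which are not part of the finished complex, had a median difference of -0.05, with 4 below 0 and 3 above. Of the 7, 1 was lower (14.3%), a share between the 11.6% of all genes and the 18.3% of genes above the dim level. This was Ndufaf4, an early assembly factor. It gave 6.16, 5.79 and 5.74 in the dendritic and 6.55, 6.77 and 6.34 in the macrophage arrays, without overlap (-0.66 ± 0.17, adjusted p = 0.0191). The call was lost without dendritic replicate 2 (0.0730) or 3 (0.0754) or macrophage replicate 2 (0.0882), with a range of 0.00123 to 0.0882 over the alternatives. Ndufaf7, a mitochondrial methyltransferase, stood at 6.03, 5.78 and 5.88 against 6.06, 6.32 and 6.17 (-0.29 ± 0.13, adjusted p = 0.188). Ndufaf3, which works together with Ndufaf4, had the opposite sign (0.30 ± 0.18, adjusted p = 0.333; range 0.0463 to 0.715) and was called higher without dendritic replicate 1. Ndufaf1, Ndufaf2, Ndufaf5 and Ndufaf6 lay between -0.10 and 0.11.

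Complex III had 4 of 9 genes lower. Its nuclear-encoded catalytic subunits are Uqcrfs1, the Rieske iron-sulfur protein, and Cyc1, cytochrome c1, which delivers electrons to cytochrome c. Uqcrfs1 gave 8.20, 8.07 and 8.25 in the dendritic and 8.62, 8.94 and 8.58 in the macrophage arrays, a difference of -0.54 ± 0.14 (adjusted p = 0.0227; range 0.00389 to 0.113). The call was lost without dendritic replicate 2 (0.0811) or macrophage replicate 2 (0.113), and with 75th percentile centring (0.0551). Cyc1 gave 7.72, 7.63 and 7.91 against 7.93, 8.30 and 8.09. These groups did not overlap either, with dendritic replicate 3 just under macrophage replicate 1, and the difference of -0.35 ± 0.14 did not pass (adjusted p = 0.131).

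Among the other complex III subunits, Uqcr11, the smallest, gave 8.91, 8.67 and 8.85 in the dendritic and 9.54, 9.84 and 9.80 in the macrophage arrays (-0.92 ± 0.14, adjusted p = 0.00124). Its further probe set gave -0.94. Uqcrc1, a core protein on the matrix side, stood at 7.60, 7.26 and 7.44 against 8.005, 8.48 and 8.10 (-0.76 ± 0.16, adjusted p = 0.00883). Uqcrb, which lies near the ubiquinone sites, stood at 8.68, 8.45 and 8.54 against 9.21, 9.37 and 9.07 (-0.66 ± 0.13, adjusted p = 0.00660), and its further probe sets gave -0.69 and -0.64. These 3 genes kept their calls in all 17 alternatives. Uqcr10 stood at 9.65, 10.01 and 10.03 against 10.13, 10.48 and 10.53 and did not pass (-0.49 ± 0.16, adjusted p = 0.0688; range 0.0137 to 0.221). It was called lower with the replicate block (0.0137) and without macrophage replicate 1 (0.0313). Uqcrq (-0.30, adjusted p = 0.203), Uqcrc2, the partner of Uqcrc1 (-0.07, 0.848), and Uqcrh, the hinge protein (0.09, 0.711), did not pass. In Uqcrh every dendritic array (11.44 to 11.48) lay above every macrophage array (11.35 to 11.39), over a difference with an interval from -0.16 to 0.35.

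Of the 19 complex IV genes, 3 were lower (15.8%), close to the 11.6% of all genes and the 18.3% of genes above the dim level. Of the 11 genes placed as widely expressed subunits, Cox7a2l among them, 1 was lower and 10 did not pass, with a median difference of -0.10. The 1 was Cox7a2, the widely expressed form of subunit VIIa, at 9.50, 9.52 and 9.52 in the dendritic and 9.81, 9.93 and 9.97 in the macrophage arrays (-0.39 ± 0.12, adjusted p = 0.0438). Leaving out any 1 of the 6 arrays took this call away (0.0550 to 0.168; lowest over all alternatives 0.0107), as did repeated quantile normalization (0.0931), 75th percentile centring (0.159) and testing every probe set (0.0639). Cox6a1, a regulatory subunit, gave 11.22, 11.24 and 11.25 against 11.40, 11.55 and 11.43. The groups did not overlap, and the difference of -0.23 ± 0.12 did not pass (adjusted p = 0.242). Cox4i1, the largest nuclear-encoded subunit, stood at 11.34, 11.44 and 11.45 against 11.48, 11.55 and 11.50 (-0.10 ± 0.11, adjusted p = 0.678). Cox6b1, which lies where the monomers of the dimer meet, stood at 11.68, 11.66 and 11.68 against 11.69, 11.71 and 11.66, with overlapping groups and an interval of the difference from -0.27 to 0.24. Cox7b (-0.23, adjusted p = 0.223), Cox8a (-0.31, 0.222) and Ndufa4 (0.02, 0.966) did not pass. The sign of the difference changed between alternatives for Ndufa4 and Cox6b1.

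The tissue-restricted forms of complex IV subunits hold the largest difference among the 73 genes. Cox7a1, the form of heart and skeletal muscle, gave 5.32, 5.61 and 5.88 in the dendritic arrays and 6.73, 7.22 and 7.13 in the macrophage arrays. The groups lay far apart, with a difference of -1.42 ± 0.19 (adjusted p = 0.000554), a 2.67-fold higher macrophage level, and the call was made in all 17 alternatives. Cox6b2, known from testis, stood at 5.96, 5.87 and 6.00 against 6.25, 7.47 and 7.06. Macrophage replicate 1 lay close to the dendritic arrays, and the difference was -0.98 ± 0.27 (adjusted p = 0.0284; range 0.000486 to 0.0964). The Cox6b2 call was lost without any 1 of the dendritic arrays (0.0548, 0.0948 and 0.0691 for replicates 1 to 3) and without macrophage replicate 2 (0.0852) or 3 (0.0964), and with every probe set tested (0.0804).

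The other 6 tissue-restricted forms did not pass. Cox4i2, the form known from lung and low oxygen, stood at 4.49, 4.78 and 4.69 in the dendritic and 4.22, 4.39 and 4.46 in the macrophage arrays, without overlap (0.30 ± 0.13, adjusted p = 0.175). Its macrophage mean of 4.36 was under the dim level of 4.63 and its dendritic mean of 4.66 just above it. Such values cannot be told from background. Cox6a2, a muscle form, overlapped between groups (0.15 ± 0.19, adjusted p = 0.715). Ndufa4l2, the low-oxygen relative of Ndufa4, was high in 1 array: macrophage replicate 1 gave 6.00, whereas the other 5 arrays lay between 3.96 and 4.65. Its difference was -0.62 ± 0.41 (adjusted p = 0.398) and -0.07 without that array. Cox7b2, Cox8b and Cox8c were dim in both groups, with group means of 3.18 to 4.40.

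**Figure D3:**
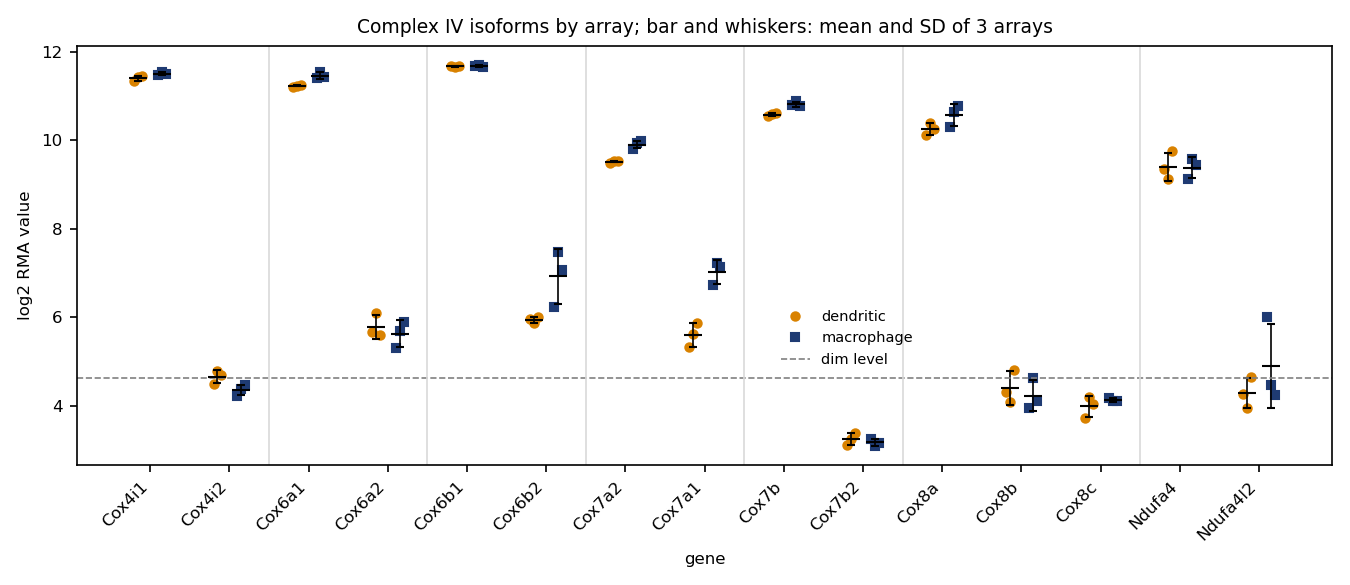
Log2 RMA value of each array (y axis) for widely expressed complex IV subunits and their tissue-restricted forms, side by side within grey dividers. Circles are dendritic and squares macrophage arrays, bars are the mean and SD of 3 arrays and the dashed line is the dim level of 4.63. Cox7a1 separates the groups most, and the single high point of Ndufa4l2 is macrophage replicate 1.

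The starts of Cox7a1 (chr7:30183921-30184170, plus strand) and Cox6a1 (chr5:115348959-115349208, minus strand) are shown as the complex IV gene with the largest difference and as a widely expressed subunit that did not pass, from the same RefSeq windows and with the same capitals.
Cox7a1: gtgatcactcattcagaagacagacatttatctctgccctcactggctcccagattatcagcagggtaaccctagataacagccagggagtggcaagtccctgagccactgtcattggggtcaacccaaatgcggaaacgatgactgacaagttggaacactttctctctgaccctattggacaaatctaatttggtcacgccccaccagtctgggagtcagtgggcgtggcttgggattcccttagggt
Cox6a1: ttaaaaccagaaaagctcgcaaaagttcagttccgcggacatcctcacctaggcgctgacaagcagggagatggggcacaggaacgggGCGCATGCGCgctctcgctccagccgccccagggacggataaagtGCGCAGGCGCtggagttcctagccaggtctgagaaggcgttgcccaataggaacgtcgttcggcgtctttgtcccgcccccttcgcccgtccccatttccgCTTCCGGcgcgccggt
The Cox7a1 stretch held neither motif, and that of Cox6a1 held NRF1 matches at -162 and -117 and an ETS match at -16. Cox6a1 does not stand for the other widely expressed genes of complex IV. Over the full windows of 9 such genes, it was the only 1 with the NRF1 motif, and 3 held the ETS motif. Of 4 tissue-restricted forms with a window, 0 held either motif.

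Over the full windows, the NRF1 motif was found in 12 of the 58 genes with a promoter (20.7%). The shares were 5.19% of all 27025 genes with a promoter and 10.8% of tested genes above the dim level. The ETS motif was found in 12 (20.7%), against 9.93% and 19.2%. The YY1 motif (AAGATGGCG) was found in 5 genes (8.62%), all of complex I, against 1.64% and 3.42%. The motif of estrogen-related receptors (TCAAGGTCA) was found in 1, Sdhd, against 0.466% and 0.353%. A gene can count under more than 1 motif. Of the genes that were lower, 6 of 24 held the NRF1 motif and 6 of 24 the ETS motif. Of those that did not pass, 6 of 34 held the NRF1 motif and 6 of 34 the ETS motif. Ndufs1, Sdhc, Cyc1 and Uqcrb were among the genes with no window. The factors' own transcripts were Nrf1 (difference 0.06), Gabpa (-0.12) and Esrra (-0.15), none of which passed, and Yy1, which was higher at 8.36, 8.30 and 8.43 against 7.89, 7.95 and 7.66. These were named for their motifs, with their values known.

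The calls were also counted by signal strength. Array signal depends on the probes, so it does not rank transcripts by amount. Among genes with a mean signal of 8 to 9, 13 of 17 respiratory chain genes were lower, against 22.9% of all genes at that signal. At 9 to 10 it was 5 of 19, against 23.2%, and at 10 to 11 it was 1 of 9, against 21.5%. At 11 or more it was 0 of 6, against 7.83%. Those 6 were Uqcrh and 5 genes placed with the widely expressed complex IV subunits, Cox7a2l among them. Under 8 it was 8 of 22, against 10.5%. Of all genes with a mean above the dim level, 18.3% were lower and 15.3% higher. Across the 51 respiratory chain genes above a mean signal of 8, Spearman's rho between mean signal and difference was 0.55, and across all 73 it was 0.17. These genes share arrays and are not independent replicates, and the part of signal strength in the complex IV counts was not tested.

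**Figure D4:**
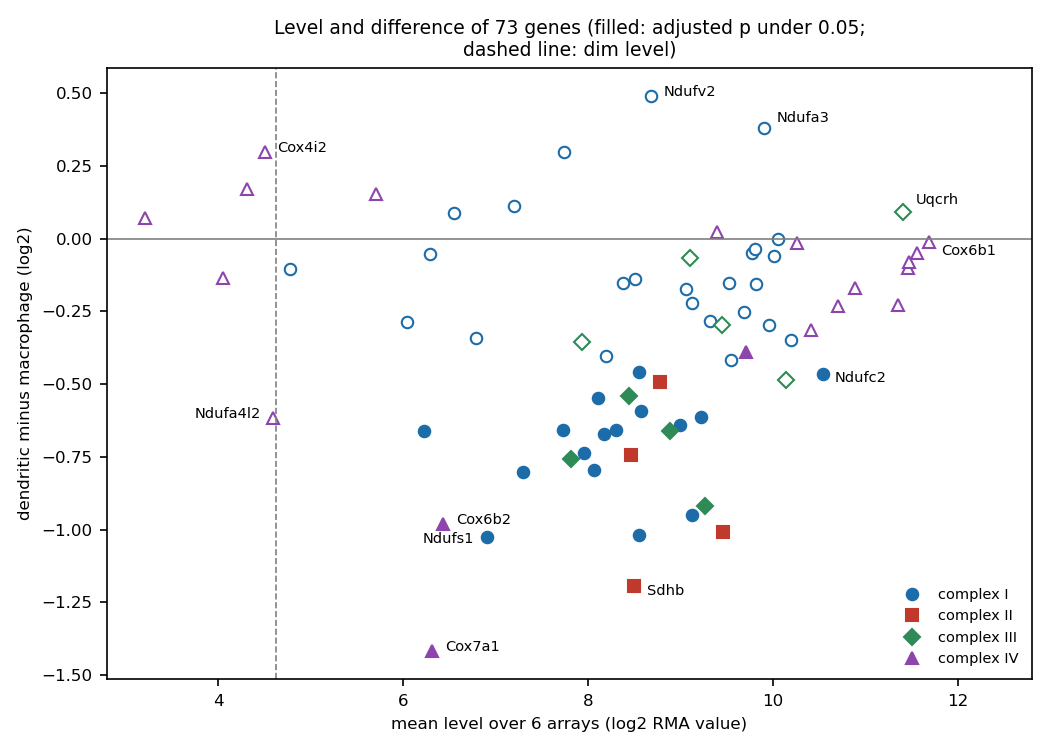
Mean signal of each of the 73 genes over 6 arrays (x axis, log2 RMA value) against its dendritic minus macrophage difference (y axis, log2). Shapes and colours give the complex, filled symbols passed limma's test and the dashed line is the dim level. No filled symbol lies above a signal of 11, and Cox7a1, the lowest point, lies near a signal of 6.

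The genes around the chain were read from lists of their own. Of 18 ATP synthase genes, 5 were lower (27.8%) and 1 higher, with a median of -0.23. Of all genes above the dim level, 18.3% were lower and 15.3% higher. Atp5g3, a ring subunit, was lower by -0.72 ± 0.15 and Atp5o, of the stalk, by -0.71 ± 0.12, while the inhibitor Atpif1 was higher by 0.47 ± 0.12. Of 18 measured genes of electron carriers and ubiquinone synthesis, 3 were lower and 1 higher. The share that was lower, 16.7%, was below that of all genes above the dim level. Cycs, the cytochrome c that connects complexes III and IV, was lower at 8.04, 7.83 and 7.89 against 8.71, 9.03 and 8.70 (-0.89 ± 0.14). Etfb, which brings electrons from fatty acid oxidation, was lower (-1.15 ± 0.21). Gpd2, the mitochondrial glycerol-3-phosphate dehydrogenase and a separate entry to ubiquinone, was higher at 9.49, 8.80 and 9.25 against 7.50, 7.75 and 7.79, which is 2.83-fold. In each of these 3 genes the groups did not overlap.

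For comparison, 18.3% of genes above the dim level were lower and 15.3% higher. The shares of the assembly factors, ribosomal proteins, import genes and regulators that follow lie near or below these. Of 33 measured assembly factors outside the Nduf family, 6 were lower and 4 higher, with Coa7 (-0.78 ± 0.16) among the former. Of 77 mitochondrial ribosomal protein genes, which serve the translation of the mitochondrially encoded subunits, 15 were lower and 5 higher, with a median of -0.16. Mrpl27 (-0.96 ± 0.13) and Mrpl42 (-0.95 ± 0.20) were lower, and Mrpl13 (1.71 ± 0.13) and Mrps6 (1.62 ± 0.21) higher. Of 19 measured genes of import, chaperones and the inner membrane, 4 were lower (21.1%) and none higher (3 at an unadjusted limma p under 0.05). Among the lower ones were Slc25a5, an ADP/ATP carrier (-1.23 ± 0.15), and Immt, which shapes the cristae (-1.05 ± 0.18). Of 17 regulators of mitochondrial gene expression, 3 were lower and 3 higher. Ppargc1b, a coactivator of these genes, was lower at 4.23, 5.10 and 4.95 against 5.78, 6.15 and 5.99 (-1.21 ± 0.22), and Myc was lower (-1.03 ± 0.17), with a dendritic mean of 4.51 that is under the dim level, so its dendritic value cannot be told from background. Gabpb1, the partner of Gabpa, was higher (1.26 ± 0.13), as was Ppargc1a (0.75 ± 0.17), which was dim in both groups. No mitochondrially encoded subunit was among the genes tested.

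**Figure D5:**
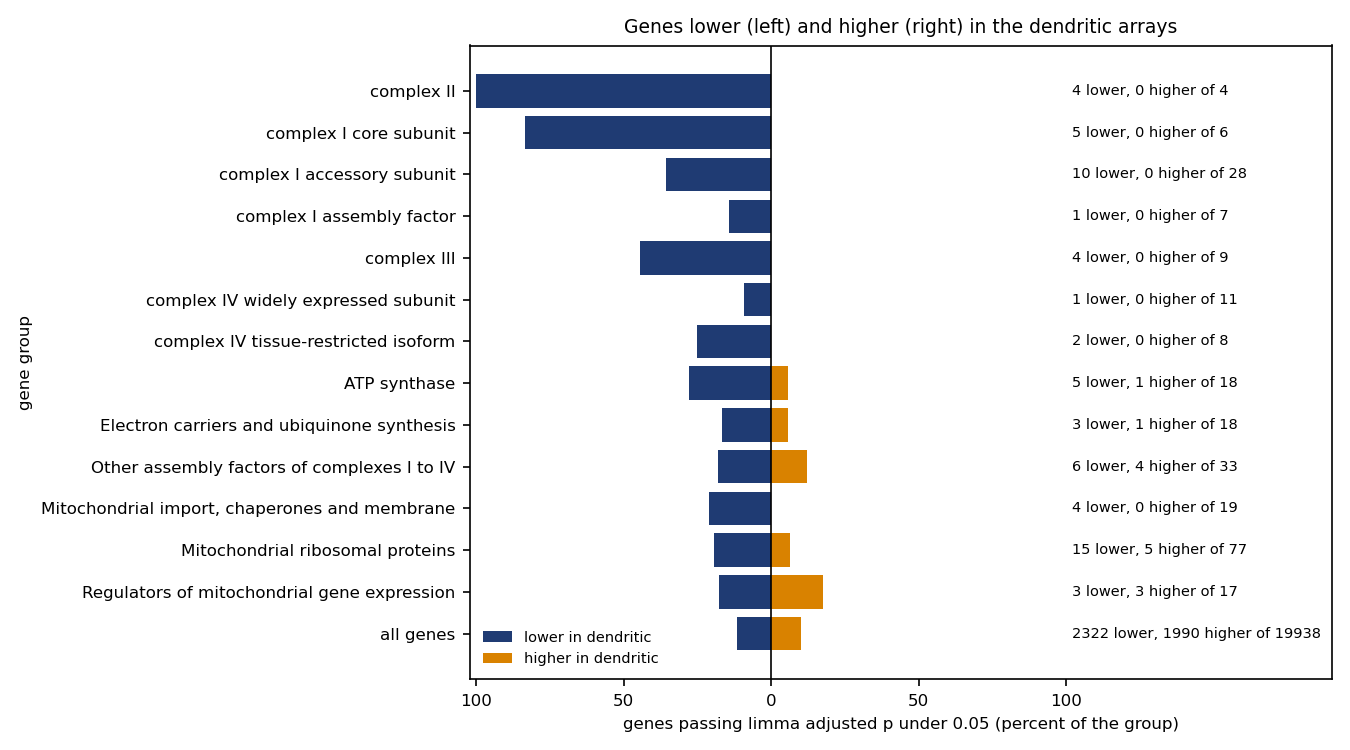
Share of each gene group that passed limma's test (x axis, percent), with genes lower in the dendritic arrays to the left and genes higher to the right, and the counts printed beside. The respiratory chain groups have bars on the left only, whereas the assembly factors outside the Nduf family and the regulators have bars on both sides.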

How the data were processed

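RNA of 6 samples was measured on Affymetrix arrays, and the deposited table holds log2 expression values that the authors made with RMA under R 3.0.2, as the submitters' processing notes list them. This method corrects background, equalises the arrays and summarises probes, so values are relative and differences at low signal may be compressed. Array medians ran from 4.79 to 4.96. The number of arrays limits the precision, and no 2 arrays held identical values.

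Of 35556 probe sets, 21789 had 1 symbol in the platform annotation, 1621 had several and 12146 were not in the table. Of the former, 21698 were found in RefSeq (GRCm38.p6) by Entrez ID and 0 symbols changed. A gene's value was that of its brightest probe set by the mean of all 6 arrays. For the 73 genes there were 85 such probe sets, and 11 genes had more than 1. limma 3.58.1 in R 4.3.3 (lmFit and eBayes, two-sided, no block) was fitted over all 19938 genes with Benjamini-Hochberg adjustment, and calls needed an adjusted p below 0.05. The fit was tested on simulated data. An exact permutation test of 3 against 3 arrays cannot go below p = 0.1. The members and lists were chosen with earlier results of these data known.

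Genes were named by rule: in each role at most 4 called members, by size of difference each way, and the 2 uncalled ones with the smallest adjusted p, all complex II, core and catalytic subunits, all tissue-restricted forms with their partners, members within 0.02 of the threshold, and up to 2 genes each way of each list. Some genes were named outside this rule, among them Sdhaf3, Ndufa5, Ndufa8, Ndufa13, Ndufb5, Ndufb6, Ndufb11, Ndufv3, Uqcrc2 and Uqcrh. Same-numbered arrays of the groups deviated together (r = 0.39, 0.15 and 0.27 for replicates 1 to 3), so a fit with the replicate number as a block was also run. The other alternatives left out each array, dropped genes of low signal (below the 30th percentile, or below the median), repeated quantile normalization, centred on the 75th percentile, took the mean or the lowest probe set, tested every probe set, used a trended robust variance or array weights, and, chosen after seeing the data, left out replicate 1 of both groups.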

Additional observations from a re-analysis of the deposited data

How the results depend on the processing

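The number of genes lower in the dendritic arrays was 14 to 28 when 1 array was left out, 28 with the replicate block, 37 with array weights and 21 after centring on the 75th percentile. That block moved Uqcr10, Ndufv2 and Ndufa3 past the threshold and changed no other call among the 73 genes. Of the 27 called genes, 14 were called in all 17 alternatives. The number higher was 0 to 3 without 1 array, 2 with the replicate block, the median filter or the trended robust variance, 1 with the 30th percentile filter, with repeated quantile normalization or without replicate 1 of both groups, and 3 with array weights. Without 1 array, complex I had 7 to 17 genes lower with a median of -0.37 to -0.22, complex II a median of -1.001 to -0.80, complex III a median of -0.59 to -0.36 and complex IV 1 to 2 genes lower. The complex I median was -0.24 with 75th percentile centring, -0.41 with array weights and -0.42 without replicate 1 of both groups. The complex II median was -0.97 with array weights and -0.98 without replicate 1 of both groups, where the median of all 73 genes was -0.39. Complex III had 7 genes lower with array weights, and complex IV 1 when every probe set was tested. Small differences changed sign: without 1 array, Cox6a2 ran from -0.0093 (macrophage replicate 1 left out) to 0.29, Cox6b1 from -0.025 to 0.0015 (macrophage replicate 2), Cox8b from -0.035 (dendritic replicate 3) to 0.37 and Ndufa4 from -0.15 (dendritic replicate 3; -0.10 without macrophage replicate 1) to 0.16. Cox6b1 was 0.043 with 75th percentile centring and Cox8c 0.023 without replicate 1 of both groups. Ndufa4 was -0.030 with array weights and -0.071 without replicate 1 of both groups. The causes were not tested. With 3 arrays a group, the 95% interval of each of the 73 genes spanned more than 0.5 log2 units, and genes near the dim level cannot be told from background.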
